A study of Mus musculus with 30 samples.

Results

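The 10 genes described here are the Notch receptors Notch1, Notch2 and Notch3, the Notch ligands Dll1, Dll3, Jag1 and Jag2, the glycosyltransferase Lfng and the Notch target genes Hes1 and Hey1. They were taken by name, and all 10 were found among the 29555 genes of both gene count tables. Peaks of open chromatin were called near a gene when they overlapped its body extended by 10 kb at both ends, which gave 104 of 158917 peaks in the table of endoderm and epiblast stem cells and 98 of 181059 peaks in the table of epiblast stem cell strains. Transcripts were counted by RNA-seq and open chromatin by ATAC-seq, in which a transposase cuts accessible DNA, in mouse epiblast stem cells (EpiSCs, the pluripotent cells of the primed epiblast) and in definitive endoderm (DE) made from them.

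The B6 EpiSCs (C57BL/6; 5 RNA and 4 ATAC libraries) grew on feeder cells in N2B27 medium with Fgf2, ActivinA and the Wnt pathway inhibitor NVP-TNKS656. The B6 DE (4 RNA and 4 ATAC libraries) came from such cells, with a labelled differentiation of 46 h. The steps listed in the labels do not add up to that time: CHIR99201, a compound used to activate Wnt signalling, with ActivinA for 16 h, and then ActivinA with the BMP receptor inhibitor LDN193189 for 24 h. DE cells were then enriched on magnetic columns for the surface receptor CXCR4, so that Cxcr4 itself is no finding between the groups. EpiSCs of PWK (PWK/PhJ; 3 RNA and 2 ATAC libraries), of a B6.129 F1 cross (3 RNA libraries) and of DBA (DBA/2J; 1 RNA and 1 ATAC library) were grown like the B6 EpiSCs. The DBA RNA library is titled DBA55 and carries a replicate number that a PWK library also carries, so all DBA transcript values rest on that label. Here "replicate" gives the number of a biological replicate in the labels. The labels do not say whether a number marks a line, an embryo or a culture, so p-values measure the spread between these libraries. Libraries of PWK DE (3 samples) were not analysed here.

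Notch receptors are cut after they bind a ligand on a neighbouring cell, and the freed intracellular domain joins the DNA-binding protein Rbpj in the nucleus and activates genes of the Hes and Hey families, which encode transcriptional repressors. Dll1, Jag1 and Jag2 activate receptors on neighbouring cells. Dll3 is a divergent family member that acts inside the cell that makes it and is known for its part in somite formation, and Lfng adds sugars to Notch receptors that change which ligands they respond to.

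RNA libraries held 22829536 to 66563933 counts and ATAC libraries 3751526 to 9571127. Markers of definitive endoderm other than Cxcr4 were higher in DE for 9 of 9 genes (summed level 7552 to 14804 in counts scaled to the library total, CPM, in DE and 163 to 528 in EpiSCs). Of 8 markers of the primed epiblast, 5 were lower in DE, 2 higher (Fgf5 and Otx2) and 1 not called, with summed levels of 2995 to 3986 CPM in DE and 2864 to 4266 CPM in EpiSCs. Among the lower ones, Pou5f1, a pluripotency factor, measured 2.46 to 37.8 CPM in DE, with the highest in replicate 2, and 981 to 1330 CPM in EpiSCs. None of the markers of presomitic and early mesoderm (6 of 9 tested), endothelium and blood (4 of 6 tested) or neuroectoderm (2 of 6 tested), tissues known for Notch signalling, were called higher in DE by edgeR, nor was any higher at an unadjusted p under 0.05. Their summed levels were 4.24 to 25.6, 0.469 to 2.14 and 1.46 to 13.6 CPM in DE against 104 to 572, 4.15 to 6.34 and 14.3 to 23.6 CPM in EpiSCs, and Msgn1, Tal1 and Neurog2 were at 0 counts in all 4 DE libraries. Of 5 markers of visceral endoderm 3 were tested, and 1 was called higher in DE and 0 lower. They summed to 2.82 to 17.2 CPM in DE and 1.62 to 5.34 CPM in EpiSCs. Apoa1, 1 of these markers, measured 1.92 to 14.1 CPM in DE and 0.0739 to 0.644 CPM in EpiSCs. The 8 markers of feeder fibroblasts summed to 50.2 to 2422 CPM in B6 EpiSCs and 62.03 to 234 CPM in DE (7 of 8 called lower in DE). In bulk samples, fewer cells of a type and less RNA per cell cannot be told apart.

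Promoter sequences from RefSeq (GRCm38.p6) were at hand for 8 of the 10 genes, and 9 starts in all, since Dll1 has 2. Those of the targets Hes1 and Hey1 were not at hand, so no motif was searched there. The sequences of 4 genes are given as the 250 bases before the start, 5′ to 3′. They are the receptor and both ligands whose transcripts changed most in DE, and Lfng. Of the 8 genes searched, Lfng alone held the core of the Rbpj binding motif, TGGGAA. Capitals mark matches to that core, searched on both strands. For Dll1 the start nearer the middle of the gene was taken, where the larger of the gene's start peaks lay.
Notch1, minus strand, chr2:26503823-26504072: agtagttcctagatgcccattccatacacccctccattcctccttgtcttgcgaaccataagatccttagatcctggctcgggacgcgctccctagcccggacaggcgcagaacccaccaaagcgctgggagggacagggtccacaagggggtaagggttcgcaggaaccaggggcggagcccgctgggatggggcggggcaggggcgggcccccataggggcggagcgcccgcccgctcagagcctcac
Dll1, minus strand, chr17:15375824-15376073: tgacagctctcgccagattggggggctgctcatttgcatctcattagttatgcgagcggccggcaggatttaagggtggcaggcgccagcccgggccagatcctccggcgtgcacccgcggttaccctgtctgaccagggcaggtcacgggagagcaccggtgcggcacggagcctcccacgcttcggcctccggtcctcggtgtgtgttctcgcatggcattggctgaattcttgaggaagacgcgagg
Dll3, minus strand, chr7:28301786-28302035: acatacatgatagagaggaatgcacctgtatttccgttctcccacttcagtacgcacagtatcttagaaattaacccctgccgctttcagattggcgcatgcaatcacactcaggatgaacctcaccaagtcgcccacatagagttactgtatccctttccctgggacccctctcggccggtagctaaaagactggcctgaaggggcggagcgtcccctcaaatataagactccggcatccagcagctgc
Lfng, plus strand, chr5:140607091-140607340: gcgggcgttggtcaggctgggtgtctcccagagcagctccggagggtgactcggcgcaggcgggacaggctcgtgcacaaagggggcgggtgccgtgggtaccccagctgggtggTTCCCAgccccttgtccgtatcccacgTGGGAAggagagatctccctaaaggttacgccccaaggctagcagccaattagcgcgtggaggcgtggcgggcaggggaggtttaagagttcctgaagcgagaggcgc
The Lfng sequence had 2 matches, which began 135 and 108 bases before its start, and the other 8 of the 9 starts had none in this window. Of all 32851 promoter windows of this length, 21.6% held the core. A match is a description of letters and no measured binding.

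**Figure D1:**
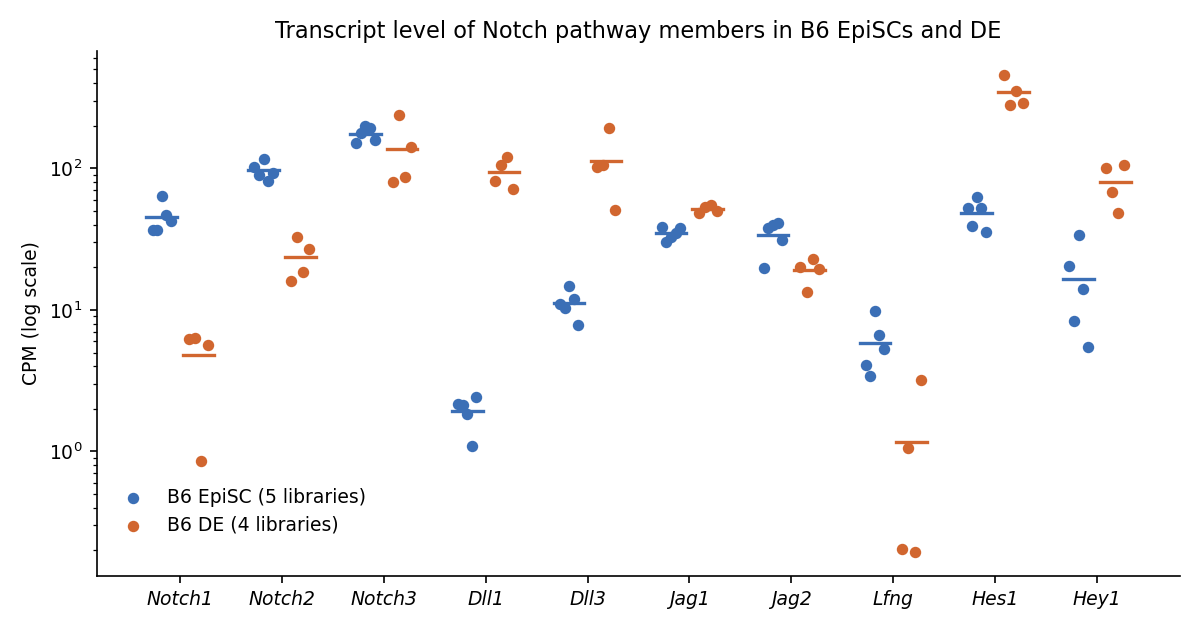
Transcript level of the 10 genes in B6 EpiSCs (blue, 5 libraries) and B6 DE (orange, 4 libraries), in CPM on a log axis. Each point is a library and each bar a group mean. Dll1, Dll3, Jag1, Hes1 and Hey1 lie higher in every DE library than in any EpiSC library, Notch1, Notch2 and Lfng lie lower, and Notch3 and Jag2 overlap.

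In DE, the ligands Dll1 and Dll3 and the targets Hes1 and Hey1 rose, while the receptors Notch1 and Notch2 fell. The ligand Jag1 rose and Jag2 fell, each by less than 2-fold, Lfng fell from an already low level, and Notch3 was not called. In all, 5 members were higher, 4 lower and 1 not called by edgeR's quasi-likelihood test at a Benjamini-Hochberg adjusted p under 0.05 over 14085 genes. Among the 4 lower members, Lfng met the filter on low counts only through the EpiSC libraries. Of all genes tested, 31.5% were called higher and 30.6% lower, so that a call was common. The members' median log2 change was 0.10, and that of all genes tested -0.01. Groups did not overlap for 8 of the 10 members, as for 55.6% of all genes tested.

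Notch1, the receptor often mutated in T-cell leukaemia, measured 36.7, 36.5, 63.4, 46.7 and 42.2 CPM in B6 EpiSC replicates 1, 2, 4, 44 and 51. In DE replicates 2, 4, 44 and 51 it measured 6.25, 6.36, 0.860 and 5.65 CPM. Every DE library lay below every EpiSC library, and replicate 44 lay far below the other DE libraries. The means were 45.1 ± 11.1 CPM (SD, n = 5) in EpiSCs and 4.78 ± 2.63 CPM (SD, n = 4) in DE, a log2 change of -3.23 (SE 0.50, adjusted p 0.000267 by edgeR), or 9.39-fold lower.

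Notch2, a receptor with broad roles in the embryo and liver, measured 102, 89.9, 117, 81.6 and 93.2 CPM in the EpiSC replicates and 16.0, 32.5, 18.6 and 26.8 CPM in the DE replicates, in the same order. The groups lay well apart. Its log2 change was -2.04 (SE 0.23, edgeR adjusted p 3.2e-05), from 96.8 ± 13.6 CPM (SD, n = 5) to 23.5 ± 7.58 CPM (SD, n = 4).

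Notch3, the receptor best known from vascular smooth muscle, measured 151, 177, 198, 193 and 160 CPM in EpiSCs and 79.9, 237, 86.8 and 141 CPM in DE. The DE libraries spread on both sides of the EpiSC range, with replicate 4 above all EpiSC libraries and the other 3 below them. The log2 change of -0.37 (SE 0.29, edgeR adjusted p 0.297) was not called, and without DE replicate 4 it was -0.77 (edgeR adjusted p 0.0108). That p does not show an equal level.

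Dll1, the ligand that activates Notch in many embryonic tissues, had the largest change of the 10 genes. It measured 2.16, 2.13, 1.84, 1.10 and 2.44 CPM in EpiSCs and 81.6, 106, 120 and 71.5 CPM in DE. All EpiSC libraries were near the bottom of the measured range and no DE library came near them. The means were 1.93 ± 0.51 CPM (SD, n = 5) and 94.95 ± 22.4 CPM (SD, n = 4), a log2 change of 5.62 (SE 0.27, adjusted p 3.89e-07 by edgeR), or 49.1-fold higher.

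Dll3 measured 11.03, 10.4, 14.8, 11.9 and 7.79 CPM in EpiSCs and 103, 106, 191 and 51.2 CPM in DE. Replicate 44 was the highest DE library and replicate 51 the lowest, as for Dll1. The log2 change was 3.34 (SE 0.34, edgeR adjusted p 2e-05), or 10.1-fold higher. Dll1 and Dll3 are also known in presomitic and early mesoderm, of whose 9 markers 6 were tested. Of these, 2 were called lower in DE, 0 higher and 4 not called. The 2 were T (log2 change -5.02, at 99.4 to 548 CPM in EpiSCs) and Tbx6 (log2 change -1.20). A part of mesoderm cells in the Dll1 and Dll3 values was not tested.

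Jag1, the ligand mutated in Alagille syndrome of the liver, measured 38.5, 30.3, 32.5, 34.8 and 38.1 CPM in EpiSCs and 48.7, 53.0, 55.2 and 49.9 CPM in DE. The difference was small but the libraries of each group lay close together. Its log2 change was 0.57 (SE 0.13, edgeR adjusted p 0.00288). Jag2, its closest relative, measured 19.7, 37.8, 39.6, 41.0 and 31.4 CPM in EpiSCs and 20.2, 13.5, 22.8 and 19.5 CPM in DE. EpiSC replicate 1 lay within the DE range, and that library also had the lowest sum of feeder markers (50.2 CPM, the other EpiSC libraries 343 to 2422). The part of feeder cells in these values was not tested. The log2 change of Jag2 was -0.84 (SE 0.24, edgeR adjusted p 0.0122).

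Lfng measured 4.06, 3.39, 9.88, 6.70 and 5.32 CPM in EpiSCs and 0.203, 1.06, 0.195 and 3.21 CPM in DE. DE replicate 51 came close to the lowest EpiSC library, and replicates 2 and 44 were near 0. The log2 change was -2.29 (SE 0.80). Lfng met the filter on low counts only through the EpiSC libraries, where it was higher. It thus had to differ to be tested, so its edgeR call is given without a p. The call was lost without DE replicate 2, 4 or 44 or EpiSC replicate 4. Without DE replicate 51 the log2 change was -3.50.

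Hes1, a repressor that responds quickly to Notch and is also known to respond to other signals, measured 52.8, 39.4, 62.9, 52.6 and 35.5 CPM in EpiSCs and 460, 281, 354 and 292 CPM in DE. Every DE library was far above the EpiSCs. The means were 48.7 ± 11.1 CPM (SD, n = 5) and 347 ± 82.1 CPM (SD, n = 4), a log2 change of 2.83 (SE 0.22, adjusted p 3.24e-06 by edgeR), or 7.12-fold higher. Hey1, a related repressor, measured 20.5, 8.34, 34.05, 13.97 and 5.47 CPM in EpiSCs and 100.5, 68.0, 48.7 and 106 CPM in DE. It varied more between EpiSC libraries than Hes1 did, and its highest EpiSC library still lay below the lowest DE library. The log2 change was 2.29 (SE 0.48, edgeR adjusted p 0.00194).

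The libraries did not differ in the same way for all members. EpiSC replicate 4 was the highest EpiSC library for 7 of the 10 genes (Notch1, Notch2, Notch3, Dll3, Hes1, Hey1 and Lfng) and the lowest for none. Among the DE libraries, replicate 4 was the highest for all 3 receptors, and replicate 44 was the highest for all 4 ligands and the lowest for Notch1, Hey1 and Lfng.

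The other genes of the pathway were described from a list of 56, of which 50 were tested in DE. Of these, 10 were higher, 14 lower and 26 not called, with a median log2 change of -0.14. Of all genes tested, 31.5% were called higher and 30.6% lower, so that calls among these genes were no more common than among all genes. The 3 that rose most were the corepressor Tle2 (1.20 ± 0.35 CPM in 5 EpiSC libraries, 24.4 ± 4.33 CPM in 4 DE libraries, log2 change 4.35, SE 0.28), the fringe glycosyltransferase Mfng (4.27 ± 1.61 and 66.6 ± 9.09 CPM, log2 change 3.96, SE 0.30) and the Hes family member Hes6 (log2 change 2.04). Mfng and Rfng (log2 change 1.18), the other fringes, thus rose where Lfng fell, and Pofut1, which adds the fucose that fringes extend, fell (log2 change -1.46). The 3 that fell most were the ubiquitin ligase Dtx3l (41.5 ± 7.50 CPM in EpiSCs, 1.96 ± 0.83 CPM in DE, log2 change -4.41, SE 0.31), the receptor-binding protein Dner (log2 change -4.38) and the repressor Bhlhe40 (log2 change -4.00).

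The counts by role rest on few genes each and stand beside the same shares of all genes, 31.5% higher and 30.6% lower. By role, 3 of 6 tested targets other than Hes1 and Hey1 rose (Hes6, Heyl and Nrarp) and 1 fell (Bhlhe40). Nrarp, a feedback inhibitor that Notch induces, went from 16.5 ± 3.59 CPM (SD, n = 5) to 50.6 ± 10.9 CPM (SD, n = 4), a log2 change of 1.62. Heyl was called on very low levels (0.418 and 1.66 CPM), and like Dner and Neurl1b it met the filter only through the group where it was higher. Of the 4 genes of the nuclear complex, 0 rose (0 also at an unadjusted p under 0.05) and 2 fell: Rbpj, the DNA-binding partner itself, from 147 ± 18.3 to 62.8 ± 14.9 CPM (log2 change -1.23, SE 0.18), and the coactivator Maml1 (log2 change -2.60). Of the 4 tested ligand ubiquitin ligases, which ligands need in order to activate a receptor, 2 fell (Mib1, log2 change -1.73, and Neurl1b, log2 change -3.21). Of the 10 proteases and their subunits, 2 rose (the gamma-secretase genes Ncstn, log2 change 0.79, and Psen2, log2 change 0.61) and 8 were not called. Of the 8 corepressor genes, 3 rose and 4 fell, and of the 11 receptor regulators 0 rose (1 at an unadjusted p under 0.05) and 3 fell. Dll4, Dlk2, Neurl3, Hes2, Hes3 and Hes5 were too low to be tested.

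**Figure D2:**
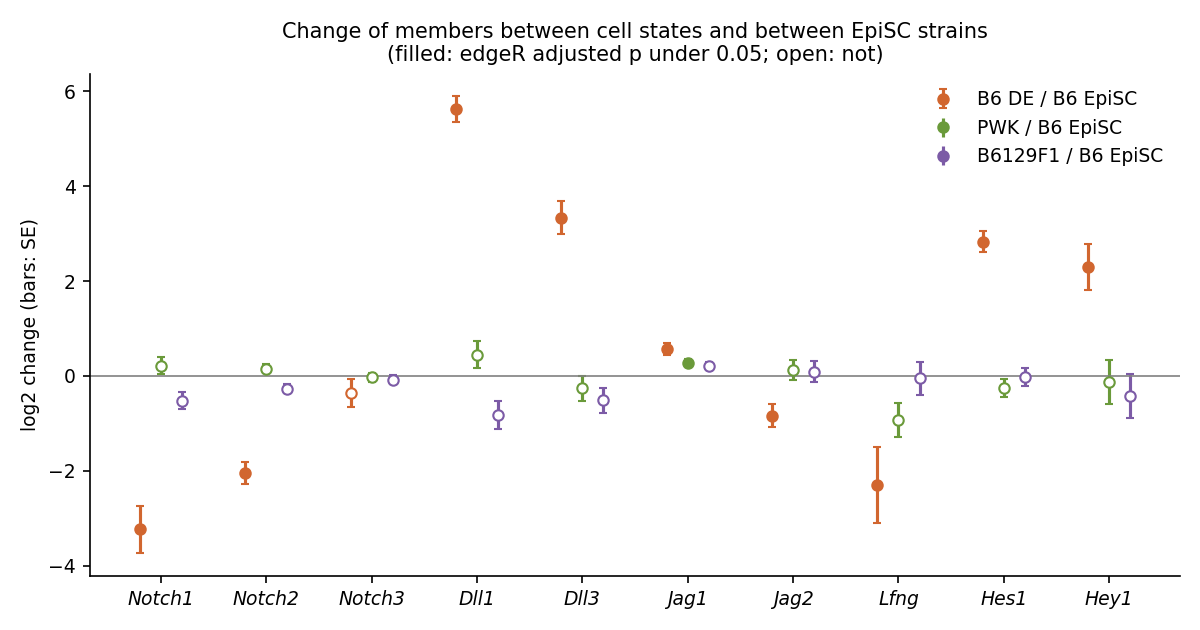
The log2 change of each gene in B6 DE (orange), PWK EpiSCs (green) and B6129F1 EpiSCs (purple), each against B6 EpiSCs. Bars are standard errors, and filled points passed an edgeR adjusted p under 0.05. Changes in DE run from -3.23 for Notch1 to 5.62 for Dll1, and those between strains from -0.92 to 0.45.

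The patterns of 2 members with the widest range, Dll1 and Notch1, were set beside all genes by the Pearson correlation of log2 CPM over 16 RNA libraries of EpiSCs and DE. Those nearest Dll1, of 9704 genes, were Derl1 (r = 0.993), Surf4 (r = 0.992) and Ddost (r = 0.991), and 351 genes exceeded 0.95. Those nearest Notch1 were Ppp1r9b (r = 0.989), Tmbim6 and Vat1 (both r = 0.985), and 211 genes exceeded 0.95. The libraries fall into 4 DE and 12 EpiSC libraries, so that these values mostly restate the difference between the cell states, and are given as a description.

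Chromatin near the members was compared in the same way. Of the 104 nearby peaks, 94 passed the filter on low counts. In DE, 30 were more open, 18 less open and 46 not called, and 47 of the 94 did not overlap between the groups. Of all 113870 peaks tested, 32.6% were called higher and 25.0% lower, and 53.8% did not overlap, so that the members' shares were close to the background. Of the higher peaks near the members, 17 met the filter only through the DE libraries, and of the lower ones 13 only through the EpiSC libraries. Such a peak had to differ to be tested, so its values are given without a p. The median log2 change was 0.16 near the members and -0.01 over all peaks. With library totals in place of TMM scaling, 24 peaks were higher and 24 lower, with all changes shifted by -0.20 in the median of all peaks. By position, 13 of 40 peaks inside the genes were higher and 13 lower, as were 11 and 3 of 30 in the flanks and 6 and 2 of 24 within 1 kb of a start (for Hes1 and Hey1, of either end of the gene, as their strand was not given). Coordinates are those of the deposited peaks, with mm10 named as the build.

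**Figure D3:**
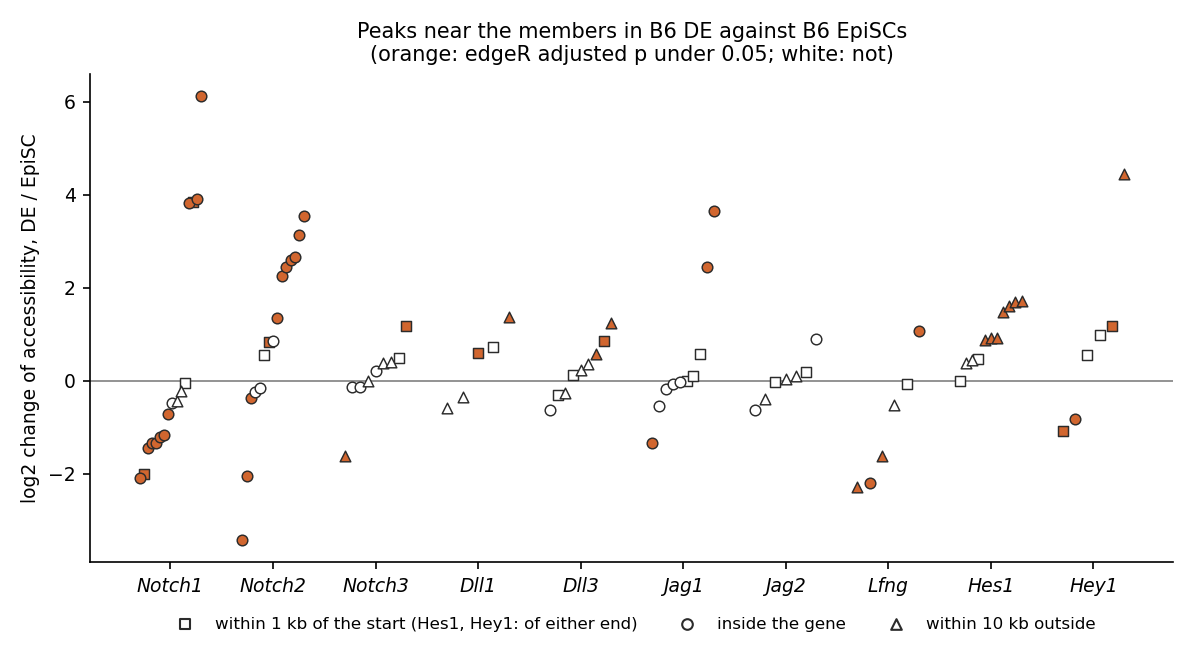
The log2 change of accessibility, B6 DE over B6 EpiSC, of each tested peak near each gene, ordered by size within a gene. Orange points passed an edgeR adjusted p under 0.05, and shapes give the position. Peaks near Notch1 and Notch2 moved both ways, 7 of 11 near Hes1 were higher and none lower, and none of 7 near Jag2 was called.

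The peak over one end of Hes1 and those over the starts of Notch1 and Lfng, whose transcripts changed, were not called different. The peak at one end of Hes1 (chr16:30065126-30065432) measured 27.4, 29.8, 29.6 and 31.9 CPM in EpiSC replicates 1, 4, 44 and 51 and 30.6, 31.8, 24.8 and 32.1 CPM in DE replicates 2, 4, 44 and 51. The 2 groups overlapped almost entirely, with a log2 change of 0.00 (SE 0.15). This value of about 0 was below 0 in 13 of 15 alternative settings and never called. The start peak of Notch1 (chr2:26503786-26503997), which covers most of the Notch1 sequence printed above, measured 9.02 ± 2.28 CPM (SD, n = 4) in EpiSCs and 8.69 ± 1.41 CPM (SD, n = 4) in DE, with a log2 change of -0.05 (SE 0.26). The start peak of Lfng (chr5:140607116-140607400), which lies over the printed Lfng sequence with both motif matches, measured 18.1 ± 1.56 CPM and 17.2 ± 4.49 CPM (SD, n = 4 each), with a log2 change of -0.06 (SE 0.20). The intervals these errors allow are wide enough to hold a small change. Of the other peaks within 1 kb of the Notch1 start, 1 was lower in DE (chr2:26504150-26504227, log2 change -2.01) and 1 higher (log2 change 3.85, described with the gene's other peaks). Start peaks of other changed members were also not called but leaned higher in DE. That of Notch2 had a log2 change of 0.55 (edgeR adjusted p 0.0525). Its groups did not overlap, with EpiSC libraries at 7.77 to 8.59 CPM and DE libraries from 9.27 CPM. The peak over one end of Hey1 had a log2 change of 0.56 (edgeR adjusted p 0.0563), with overlapping groups. The start peak of Jag2 had a log2 change of 0.19 (edgeR adjusted p 0.503).

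For both rising Delta-like ligands, the peak within 1 kb of a start that had the highest mean count was called more open in DE. Near Dll3, 3 of 9 tested peaks were called higher, and near Dll1 2 of 5, with 0 lower at either gene. Another peak, 0.06 kb before the Dll3 start and over the printed Dll3 sequence, is not described here. For Dll3 (chr7:28302278-28302532, 0.62 kb before the start) the EpiSC replicates measured 13.6, 12.1, 11.9 and 17.3 CPM and the DE replicates 31.6, 21.8, 24.3 and 22.0 CPM. The groups did not overlap, and the log2 change was 0.86 (SE 0.19, edgeR adjusted p 0.000662). For Dll1 (chr17:15375798-15376137, over the printed Dll1 sequence) the EpiSC replicates measured 17.7, 11.2, 8.75 and 9.15 CPM and the DE replicates 20.2, 16.9, 22.2 and 11.5 CPM. The groups overlapped, and the log2 change of 0.61 (SE 0.25, edgeR adjusted p 0.0425) lost its call in 10 of 15 alternative settings, with adjusted p up to 0.321. A peak 4.22 kb outside Dll1, on the side of its start (chr17:15381148-15381483) did not overlap between the groups (5.62 ± 1.01 and 14.4 ± 4.48 CPM, SD, n = 4 each), with a log2 change of 1.38 (SE 0.27, adjusted p 0.000153 by edgeR).

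The next peaks were named for the smallest p or after their values were seen. Their sizes thus allow no comparison with the start peaks, which were named for their mean count. Beside Hey1, a peak 2.26 kb beyond the gene (chr3:8669298-8669563, as near to the gene model LOC115489673) measured 0.457, 0.191, 0.972 and 0.738 CPM in EpiSCs and 10.2, 10.8, 16.9 and 8.79 CPM in DE. It was nearly closed in all EpiSC libraries, and its log2 change was 4.45 (SE 0.42). The peaks near Hey1 moved both ways: of 6 tested, 2 were higher, 2 lower and 2 not called, with log2 changes from -1.09 to 4.45. Near Hes1, a peak 4.71 kb outside the gene (chr16:30060489-30060648) rose from 4.17 ± 1.16 to 14.02 ± 2.67 CPM (SD, n = 4 each), a log2 change of 1.71 (SE 0.27, adjusted p 1.64e-05 by edgeR). A group of 5 peaks from 1.94 to 3.22 kb past the other end of Hes1 was higher as well, with log2 changes from 0.87 to 1.61, and these lay as near to the gene model Gm32998.

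Inside Notch1 and Notch2, whose transcripts fell, several peaks were more open in DE. Inside Notch1, 21.5 kb from its start, a peak (chr2:26482149-26482462) measured 0.457, 1.14, 0.729 and 0.885 CPM in EpiSCs and 15.7, 14.1, 11.3 and 10.4 CPM in DE. Its log2 change was 3.91 (SE 0.35). A smaller peak inside Notch1 (chr2:26465742-26465847) held at most 1 count in any EpiSC library and measured 3.45 to 4.51 CPM in DE. Of 16 tested peaks near Notch1, 4 were higher and 8 lower. Another of the higher peaks, 0.86 kb before the start (chr2:26504593-26504766, as near to Gm35978), rose from 0.855 ± 0.37 to 13.2 ± 4.59 CPM, with a log2 change of 3.85. Of 15 tested near Notch2, 8 were higher and 3 lower. The clearest of these (chr3:98060861-98061101, 47.4 kb from the start) measured 2.13, 1.53, 1.21 and 0.295 CPM in EpiSCs and 11.6, 10.97, 13.6 and 10.4 CPM in DE, with a log2 change of 3.14 (SE 0.37). Which gene any of these peaks acts on was not measured.

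**Figure D4:**
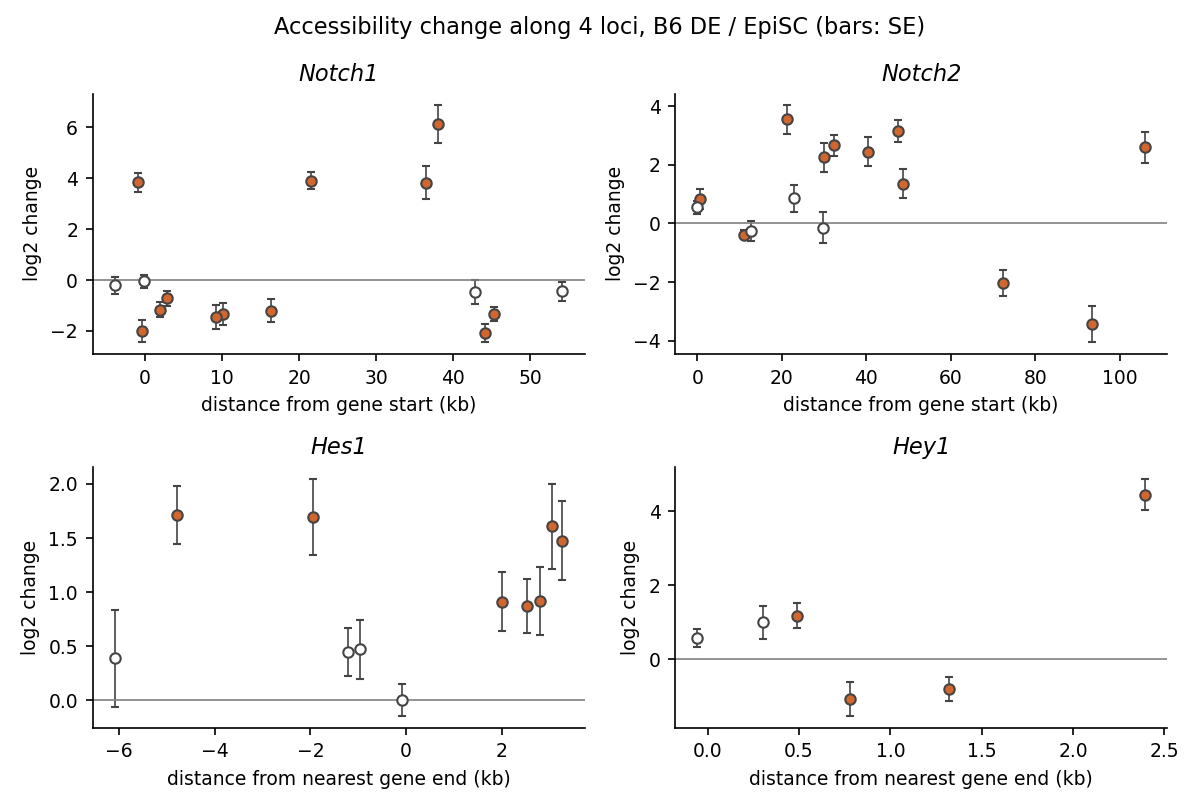
Log2 change of accessibility (B6 DE over B6 EpiSC, with standard errors) of each tested peak against its distance in kb from the gene start of Notch1 and Notch2, and from the nearest gene end for Hes1 and Hey1. Orange points passed an edgeR adjusted p under 0.05. The peak over the start of Notch1 (-0.05) and that over the end of Hes1 (0.00) lie near 0, while a peak 0.86 kb before the Notch1 start is at 3.85 and a peak beside Hey1 at 4.45.

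The remaining members had fewer changes. Inside Jag1, 2.56 kb from its start, a peak (chr2:137113866-137114063) rose from 2.82 ± 1.09 to 16.3 ± 1.34 CPM (SD, n = 4 each), a log2 change of 2.45 (SE 0.28). The start peak of Jag1 with the highest mean count (chr2:137117445-137117615, 0.92 kb outside the gene) was not called (log2 change 0.10, edgeR adjusted p 0.752). Other peaks lay nearer, 0.23 and 0.51 kb before the Jag1 start, and are not described here. Inside Lfng, 4.71 kb from its start, a peak (chr5:140611922-140612171) fell from 12.2 ± 2.80 to 2.77 ± 1.48 CPM, a log2 change of -2.21 (SE 0.33). A neighbour 4.05 kb from the start (chr5:140611232-140611549) rose from 8.08 ± 2.55 to 17.2 ± 2.14 CPM, a log2 change of 1.07. Near Notch3, 1 of 9 tested peaks was higher and 1 lower, the latter 6.44 kb outside the gene (chr17:32114263-32114381, log2 change -1.62). Near Jag2, whose transcript fell, 0 of 7 tested peaks were called by edgeR. The largest change was a log2 change of 0.89 inside the gene (chr12:112926116-112926209). That peak met the filter only through the DE libraries, so its change is given without a p. It was called without DE replicate 51.

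Between EpiSC strains the members differed little. The comparisons of PWK, B6129F1 and DBA share the same B6 EpiSC libraries, and so do those with DE. In PWK against B6 EpiSCs, 1 member was higher and 0 lower by edgeR (1 lower at an unadjusted p under 0.05 and 1 lower by DESeq2), while 12.0% of 14822 genes were called higher and 14.5% lower. Jag1 was that member: PWK libraries measured 41.9, 43.4 and 43.6 CPM and the B6 libraries from 31.2 to 40.3 CPM with a median of 35.7. The groups did not overlap, but the log2 change of 0.27 (SE 0.09, edgeR adjusted p 0.0461) lost its call in 8 of 14 alternative settings, the loss of any PWK library included, with adjusted p up to 0.139. Lfng was not called in PWK (3.17 ± 1.18 CPM, SD, n = 3, where B6 had 6.03 ± 2.62 CPM, SD, n = 5; log2 change -0.92, edgeR adjusted p 0.0796), and DESeq2 called it (adjusted p 0.0454). Feeder markers summed to 1910 to 2733 CPM in PWK and 52.6 to 2468 CPM in B6, and their part in these values was not tested. The groups did not overlap for 1 of the 10 members, and for 32.1% of all genes tested.

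Of 51 other pathway genes, 4 rose and 11 fell in PWK, and the median log2 change was -0.15. The largest changes were those of the ubiquitin ligase Dtx1 (2.94 ± 0.31 CPM in 3 PWK and 14.7 ± 4.25 CPM in 5 B6 libraries, log2 change -2.31), the ubiquitin ligase Neurl1b (log2 change -2.02), the Hes-related repressor Hey2 (log2 change -1.96, below 1 CPM in both strains and past the filter only through B6) and the Delta-like protein Dlk1 (2.43 ± 1.12 CPM in B6 and 5.76 ± 1.26 CPM in PWK, log2 change 1.25).

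In B6129F1 against B6 EpiSCs, 0 members were called in either direction by edgeR and 0 by DESeq2, where edgeR called 1.34% of all genes higher and 1.50% lower. In edgeR 4 members passed an unadjusted p of 0.05: Notch1 (33.2 ± 2.63 CPM, SD, n = 3, against 46.3 ± 11.1 CPM, SD, n = 5; log2 change -0.52, adjusted p 0.117), Notch2 (log2 change -0.27), Dll1 (log2 change -0.83) and Jag1 (log2 change 0.20). Over all 14822 genes tested, 3614 passed the same threshold. Without B6 replicate 1, Jag1 was called (log2 change 0.29, adjusted p 0.0474). The groups did not overlap for 2 of the 10 members, and for 14.5% of all genes tested. For Notch1 every F1 library (30.3, 34.2 and 35.3 CPM) lay below every B6 library (37.6 to 64.9 CPM). For Jag1 every F1 library (41.2 to 44.2 CPM) lay above every B6 library (31.2 to 40.3 CPM). Feeder markers summed to 121 to 191 CPM in B6129F1 and 52.6 to 2468 CPM in B6, and their part in these values was not tested. Of the other pathway genes, Mib1 was higher and Ncstn lower, and 49 of 51 were not called.

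**Figure D5:**
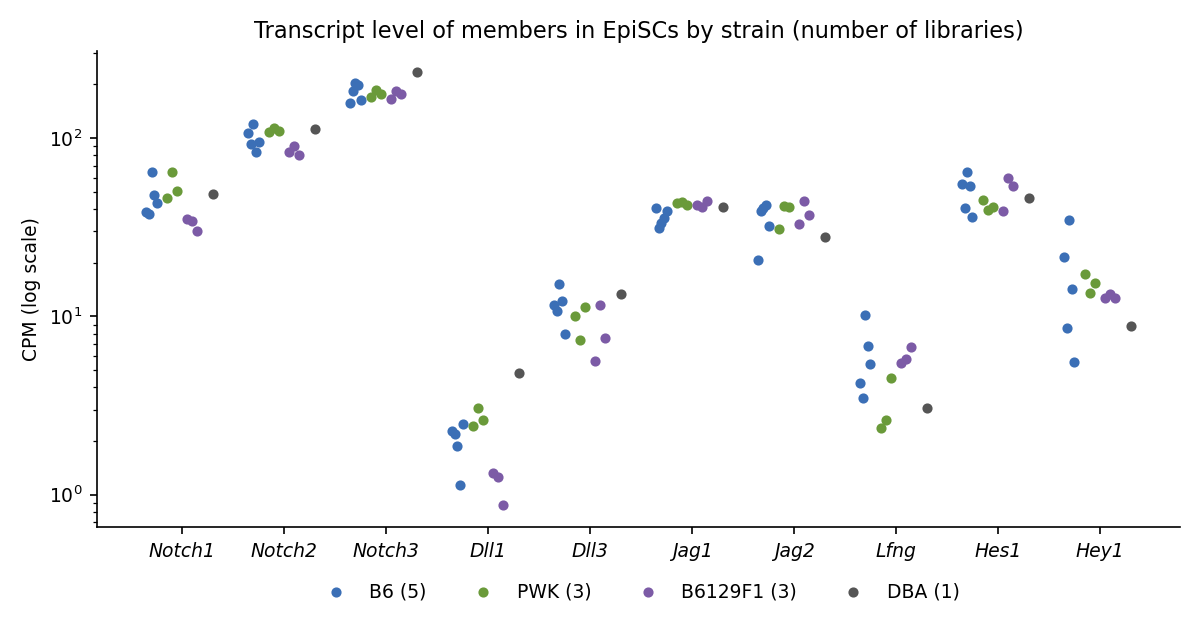
Transcript level of the 10 genes in EpiSC libraries of B6 (blue, 5), PWK (green, 3), B6129F1 (purple, 3) and DBA (grey, 1), in CPM on a log axis. Each point is a library. The libraries of different strains overlap for most genes, and the DBA library stands above all others for Dll1, at 4.82 CPM, and for Notch3.

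The DBA library has no replicate, so no test was possible, and a gene was counted as different when its CPM was more than 2-fold from the B6 mean. Of 12797 genes with at least 1 CPM, 3.69% were higher and 4.55% lower (8.24% in all), and the single B6 libraries set against the other B6 libraries gave 3.29% to 10.3% in all. Of the members 1 was higher, Dll1, and 0 lower: 4.82 CPM (95% exact Poisson interval 4.02 to 5.72, counting error only) against 1.99 ± 0.53 CPM (SD, n = 5) in B6, a ratio of 2.42. The order of Dll1 levels was B6129F1 (1.15 ± 0.24 CPM, SD, n = 3), B6, PWK (2.70 ± 0.32 CPM, SD, n = 3) and the DBA library, where the neighbours with replicates were not separated by the tests against B6. All EpiSC libraries lay far below the lowest DE library, which measured 71.5 CPM in the other table. Hey1 (8.89 CPM in DBA, B6 5.57 to 34.8 CPM) and Lfng (3.06 CPM in DBA, B6 3.49 to 10.1 CPM) came near 2-fold lower, and Lfng passed it when scaled to library totals.

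Accessibility near the members differed in few peaks between PWK and B6 EpiSCs. Of 98 nearby peaks 85 were tested: 1 was higher, 6 lower and 78 not called, and 29 did not overlap. Over all 137667 peaks, 1.42% were higher and 3.68% lower, and 26.3% did not overlap. The higher one was the start peak of Dll3 (chr7:28302283-28302494), with 33.3 and 20.8 CPM in the 2 PWK libraries against 13.4, 12.8, 11.7 and 16.6 CPM in B6 (log2 change 0.99, edgeR adjusted p 0.0223). The call was lost without 1 of the PWK libraries or B6 replicate 1 or 4. The Dll3 transcript did not follow by call (log2 change -0.26, edgeR adjusted p 0.502).

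Of the 6 lower peaks, 3 met the filter only through the B6 libraries. Of the same 6, 3 lay past the far end of Dll3 and as near to Selenov, with the strongest at 1.76 and 2.16 CPM in PWK, where B6 had 19.5 ± 2.81 CPM (SD, n = 4) (chr7:28290686-28290981, log2 change -3.26, edgeR adjusted p 2.96e-05). Another 2 lay past the end of Notch3, among them the peak already described as lower in DE (chr17:32114263-32114381), at 0.176 and 0.433 CPM in PWK and 6.26 ± 0.59 CPM in B6 (log2 change -4.16). The last was inside Notch2 (chr3:98026049-98026211, log2 change -1.65, edgeR adjusted p 0.0453), and lost its call in 7 of 11 alternative settings. PWK differs from the mm10 reference in many bases, and how reads of PWK were aligned is not given in the sources used here, so its part in these values was not tested. Hes1, Hey1, Notch1, Jag1, Jag2, Dll1 and Lfng had 0 peaks called by edgeR in this comparison. At an unadjusted p under 0.05, Notch1 had 1 higher and 1 lower, Jag1 had 2 lower and Lfng 1 lower.

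In the DBA ATAC library, 84 peaks near the members were compared with the B6 mean, without a test. Of these 1 was more than 2-fold higher and 5 more than 2-fold lower, where 6.20% of all peaks were higher and 15.1% lower (21.3% in all) and single B6 libraries gave 11.4% to 20.3% in all. The higher one lay near the start of Dll1 (chr17:15377485-15377558), at 2.16 CPM from 14 counts (95% exact Poisson interval 1.18 to 3.63) against 0.843 ± 0.43 CPM (SD, n = 4) in B6. The lower ones lay in Notch1, Notch2 (2 peaks), Jag1 and near Lfng, each on 2 to 9 counts in the DBA library.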

How the data were processed

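Whole-number counts per gene and per peak were deposited by the authors. Per the submitters' processing notes, Salmon, featureCounts and DESeq2 were named for RNA-seq, and fastp, Bowtie2, MACS2, featureCounts and DESeq2 for ATAC-seq, with mm10 for both. Their order, versions, strand setting and peak coordinate base are not given in the sources used here. Without strand, reads of overlapping antisense genes cannot be told apart. Columns were matched to samples by name, except 3 whose names gave only the group, and 17 columns of 1 peak table were not used. From these counts, CPM on TMM-scaled totals and edgeR 4.0.16 quasi-likelihood tests (R 4.3.3, filterByExpr, Benjamini-Hochberg over all features) were computed per table. The tests were also run on simulated counts with a single fixed spread for all features. That run checked the code and does not show how the tests perform at the spread of these libraries. DESeq2 1.42.0, other scalings, filters, flanks and leaving out each library were alternatives. The PWK and B6129F1 tests shared 1 fit. No replicate pair agreed within sampling noise (chi-square per feature at least 2.87). Symbols matched 29270 of 29555 gene IDs. Gene extents, which hold no exon limits here, and promoters are RefSeq's. Levels were not compared between genes, since lengths were not used. Intervals cover counting error only.

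The members and lists were chosen with earlier results of these data known. Named were all 10 members; of the other pathway genes the 3 largest called changes in each direction in DE and, for strains, called changes of at least 2-fold (at most 4), with others named by role after their values were seen; for peaks the start peak with the highest mean and the one with the smallest p, with others chosen after their values were seen; and the 3 genes most like the 2 members of widest range. For likeness, log2(CPM + 1) on library totals was used, over genes with a mean of at least 3.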

Additional observations from a re-analysis of the deposited data

Results flagged for a closer look

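The lowest or highest library stood apart from the rest of its group in 4 of 58 groups of member values examined, by Dixon's test at the 95% level, and chance alone flags about 1 in 20 groups. Notch1 measured 0.860 CPM in DE replicate 44, where the other DE libraries measured 5.65 to 6.36 CPM. The Jag1 peak 2.56 kb from the start measured 14.3 CPM in DE replicate 44 against 16.9 to 17.1 CPM in the others. The Jag2 peak with the smallest p measured 2.20 CPM in DE replicate 51 against 4.64 to 4.90 CPM. The Lfng peak 4.71 kb from the start measured 16.4 CPM in EpiSC replicate 51 against 10.5 to 10.97 CPM.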

How the results depend on the processing

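In DE, 8 of the 9 called members kept direction and call in all 16 alternatives, and Lfng in 11 of 15. With at least 10 counts in every library, 13 peaks near members were higher and 5 lower in DE and 2 lower in PWK. Within 50 kb, 65 were higher and 36 lower in DE, and within 2 kb, 1 was lower in PWK. For PWK transcripts, 0 members were higher without a filter or with only the 2 groups compared, and 1 was lower by DESeq2. Leaving out each library gave 0 to 1 higher and 0 to 1 lower for PWK, 0 to 1 higher for B6129F1 and 0 to 1 PWK peaks higher. On library totals, 1 member was lower in DBA. The replicate numbers were not taken as pairs, since same-numbered libraries correlated at 0.09 to 0.23 in RNA and -0.01 to 0.06 in ATAC. Among libraries with shared numbers only, each of 4 DE RNA libraries correlated best with its own number, and 2 of 3 in ATAC, a hint from the data. With EpiSC replicate 1 included, DE RNA replicate 4 correlated better with that library (0.129) than with its own number (0.091). With the replicate block, 5 members were higher and 4 lower, and 24 peaks were higher and 11 lower.

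Values that changed sign were uncalled in every case. On library totals the log2 change was 0.031 for Notch3 in PWK, and -0.096, -0.0074 and -0.20 for the start peaks of Jag1, Jag2 and Hes1 in DE. The Hes1 peak gave -0.044 with RLE scaling, -0.046 with DESeq2, -0.0093 with no filter, -0.0096 with at least 10 counts, -0.044 with the replicate block and -0.043 with the same libraries unpaired. The Lfng start peak gave 0.0078 with the replicate block and 0.021 unpaired, and the Hey1 start peak in PWK gave -0.012 with no filter. Leaving out each library in turn gave ranges that crossed 0. In PWK these were -0.075 to 0.012 for Notch3, -0.018 to 0.25 for Jag2, -0.35 to 0.31 for Hey1 and -0.42 to 0.32 for the Hey1 start peak. In B6129F1 they were -0.042 to 0.19 for Jag2, -0.16 to 0.15 for Hes1, -0.65 to 0.012 for Hey1 and -0.19 to 0.21 for Lfng. At the start peaks in DE they were -0.38 to 0.0077 for Notch1, -0.087 to 0.22 for Jag1, -0.087 to 0.32 for Jag2 and -0.22 to 0.046 for Hes1. The cause was not tested. ATAC totals of at most 9571127 counts limit what single peaks can show.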
